A study of Homo sapiens with 6 samples.

Results

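The 10 rows of a gene expression table are described here, all genes of the GAGE family of cancer-testis antigens: GAGE12G, GAGE2B, GAGE4, GAGE12C, GAGE12J, GAGE12H, GAGE5, GAGE12I, GAGE12F and GAGE12B. They are 10 of 34602 human rows, and 10 of the 20 rows named GAGE. They were chosen by the spread of their signals between 3 MBTD1 knockout clones, so the knockout values are a description and carry no test of that spread. The tested clones carry the genotype MBTD1 knockout, made with CRISPR/Cas9 in U2OS, a human osteosarcoma line, and are MBTD1 KO 1, 2 and 3. The other group is 3 clones with the genotype control, titled control KO 1, 2 and 3. All 6 were grown untreated in DMEM with 10% FBS, and total RNA of each clone went on 1 Illumina bead array. The series' design text calls the controls wild type, whereas their labels call them control clones, and their derivation is not described. The labels do not say whether clones were cultured separately or when, so the spread behind each p-value may be partly technical.

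GAGE genes lie as a tandem array of near-identical copies on the X chromosome. They are normally active in male germ cells and are silent in most other adult tissues, where their promoters carry DNA methylation. Many tumours switch them on again, and peptides of the proteins can be presented to T cells, which is how the family was found. MBTD1 holds MBT repeats, which bind methylated lysines of histones, and is a subunit of the TIP60/NuA4 acetyltransferase complex.

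The promoter sequences are shown because the copies differ so little from each other. RefSeq (GRCh38.p14) held a window of 300 bases, 250 before the start and 50 from it on, for 6 of the 10 members, all on the plus strand of chromosome X. The first sequence is GAGE12C at chrX:49531927-49532226, the second GAGE12B at chrX:49340914-49341213, and the third, for contrast, GAGE10 at chrX:49303396-49303695, a family gene that is not a member. They are written 5′ to 3′, and capitals mark CG dinucleotides, the bases that DNA methylation acts on.
GAGE12C: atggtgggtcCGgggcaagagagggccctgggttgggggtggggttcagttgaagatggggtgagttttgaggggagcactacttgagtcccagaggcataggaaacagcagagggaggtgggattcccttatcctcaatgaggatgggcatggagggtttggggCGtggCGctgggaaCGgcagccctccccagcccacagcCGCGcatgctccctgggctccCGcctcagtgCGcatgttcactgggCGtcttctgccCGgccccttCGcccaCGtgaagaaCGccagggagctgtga
GAGE12B: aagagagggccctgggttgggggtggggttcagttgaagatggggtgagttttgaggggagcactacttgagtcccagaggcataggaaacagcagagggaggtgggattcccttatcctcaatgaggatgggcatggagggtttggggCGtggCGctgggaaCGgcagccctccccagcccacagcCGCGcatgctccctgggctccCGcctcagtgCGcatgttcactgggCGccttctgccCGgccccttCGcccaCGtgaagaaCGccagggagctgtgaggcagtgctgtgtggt
GAGE10: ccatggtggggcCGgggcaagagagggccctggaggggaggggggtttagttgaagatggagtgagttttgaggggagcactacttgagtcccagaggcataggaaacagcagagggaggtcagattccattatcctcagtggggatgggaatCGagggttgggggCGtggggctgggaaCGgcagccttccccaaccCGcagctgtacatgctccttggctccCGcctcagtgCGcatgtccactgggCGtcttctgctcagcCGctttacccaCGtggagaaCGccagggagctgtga
The windows of GAGE12F, GAGE12H and GAGE12J were identical to that of GAGE12C over all 300 bases, and that of GAGE12G over the 297 bases that align. GAGE12B differed by 1 substitution, T252C, over 284 aligned bases, counted from 1 at the first base of the GAGE12C window. GAGE12D, GAGE12E and GAGE2A, which are not members, also had the GAGE12C letters at all 300 bases, as did a window of GAGE1 at chrX:49598770-49599069. GAGE10 had 28 mismatches over 297 aligned bases, 90.6% identity. The GAGE12C window held 13 CG dinucleotides, the GAGE12B window 12 and the GAGE10 window 11, against a median of 14 over 34943 RefSeq windows of the same length. Each of the 3 windows held the letters CACGTG once. This motif reads the same on both strands, and 7.23% of all windows hold it. These windows lie mostly before the start, and the transcripts were not compared. In a family of near-identical copies, a probe for one copy may also bind transcripts of others. The probe sequences were not used here, so the 10 rows cannot be counted as 10 independent measurements.

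In all 10 members KO 1 was highest, and KO 2 and KO 3 were both below every control. KO 2 read lower than KO 3 throughout, but in GAGE12I and GAGE12F neither of these clones was above background, so their order there is not shown. The values below are mean bead intensities with the standard error of the bead signals, on a linear scale that still includes a background of 81.7 to 84.2 units, depending on the array. GAGE12G gave 2245 ± 86.8 in KO 1, 84.9 ± 1.32 in KO 2 and 134 ± 5.20 in KO 3, against 377 ± 8.91, 251 ± 8.04 and 306 ± 17.0 in controls 1, 2 and 3. GAGE2B gave 2896 ± 95.4, 93.3 ± 2.24 and 159 ± 6.86 in KO 1, 2 and 3, against 505 ± 22.0, 321 ± 9.20 and 378 ± 11.2 in controls 1, 2 and 3. For both, KO 1 stood far above every control, KO 3 below every control, and KO 2 at or near the background of the array. GAGE4 gave 2316 ± 73.8, 89.9 ± 2.85 and 138 ± 4.59 in the KO clones, against 404 ± 16.6, 256 ± 10.3 and 331 ± 10.4 in the controls. GAGE12C gave 1758 ± 101, 87.2 ± 2.41 and 115 ± 3.56 in the KO clones, against 266 ± 9.86, 195 ± 8.12 and 225 ± 11.8 in the controls. In neither row did any KO clone fall inside the range of the controls.

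GAGE12J read 1540.2, 85.1 and 118 in KO 1, 2 and 3, against 291, 189.7 and 236 in controls 1, 2 and 3. GAGE12H read 1346, 91.1 and 107 in the KO clones, against 221, 175 and 196 in the controls. GAGE5 read 1339, 88.7 and 113.5 in the KO clones, against 252, 179.9 and 205 in the controls. These 3 rows repeated the order of the rows above. GAGE12I read 910.2, 86.5 and 99.1 in the KO clones, against 198, 148 and 157 in the controls. GAGE12F read 689.7, 76.8 and 86.1 in the KO clones, against 137.5, 112 and 130.3 in the controls. GAGE12B read 735, 82.4 and 91.3 in the KO clones, against 178, 130.3 and 143 in the controls. In these last 3 rows the KO 2 and KO 3 values were close to the background, so the distance between those 2 clones could barely be measured. Over the members, the bead standard error was 1.56% to 6.35% of the intensity, from 14 to 31 beads a value, and it covers only the spread of beads on 1 array. There is no second array of any clone.

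**Figure D1:**
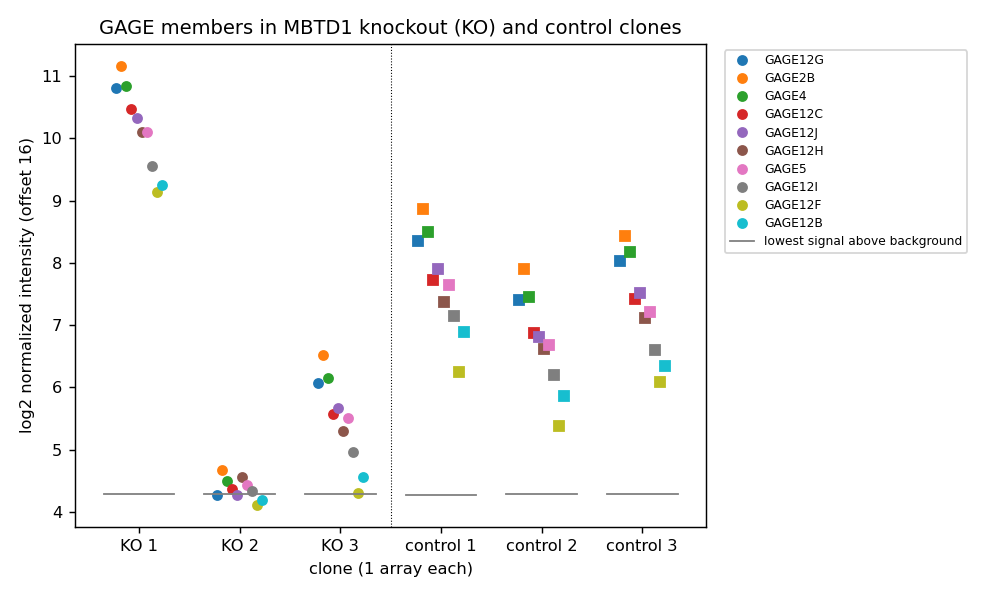
Normalized log2 intensity of each of the 10 GAGE members (vertical axis) in the 3 MBTD1 knockout clones and, to their right, the 3 control clones, 1 point per member and array, with a grey line at the lowest signal above background on each array. In every member KO 1 is highest and the 3 controls lie between KO 1 and the other knockout clones, whose own order is not resolved where both sit at the grey line.

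A detection p-value compares a row's signal with that of negative control beads, and a row was called above background at a detection p under 0.05. All 10 members were above background in KO 1, 3 were in KO 2 and 8 in KO 3, against all 10 in each control. The 3 that remained detected in KO 2 were GAGE2B (detection p 0.00649), GAGE4 (0.0054) and GAGE12H (0.0169). In KO 3 the rows not above background were GAGE12I (detection p 0.0606) and GAGE12F (0.191). The detection p of GAGE12I was not that of a single probe. Its intensity in KO 3, 99.1, exceeded the 91.3 of GAGE12B, which was above background there (detection p 0.013). In KO 2, GAGE12F and GAGE12B were at or below the mean of the background. All 10 members passed the filter for testing, which asked for a signal above background on at least 3 arrays. In a culture, fewer cells with a transcript and less transcript per cell cannot be told apart on these arrays.

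The size of the gaps was taken from background-corrected, quantile-normalized log2 values. On that scale KO 1 exceeded the mean of the controls by 2.77 to 3.24 over the 10 members (median 2.91), which is 6.82-fold for GAGE2B up to 9.45-fold for GAGE12F. KO 2 was lower than the control mean by 13.2-fold for GAGE2B, 11.6-fold for GAGE4 and 5.55-fold for GAGE12H. For the other 7 members, not above background in KO 2, it was lower by about 3.07-fold (GAGE12F) to about 12.5-fold (GAGE12G). KO 3 was lower than the control mean by 3.17-fold (GAGE5) to 3.70-fold (GAGE4) in 8 members. For GAGE12I it was lower by about 3.22-fold and for GAGE12F by about 3.03-fold. Between the knockout clones, KO 1 exceeded KO 2 by 89.8-fold for GAGE2B, 81.2-fold for GAGE4 and 46.7-fold for GAGE12H. For the other 7 members this gap is again approximate, from about 29.0-fold for GAGE12F to about 92.1-fold for GAGE12G. KO 1 exceeded KO 3 by 24.1-fold to 30.1-fold, of which GAGE12I (about 24.1-fold) and GAGE12F (about 28.6-fold) are approximate. The approximate folds set the dim clone at the higher of its own signal and the lowest signal that counts as detected on its array. In KO 2 that lowest signal was 85.4 units, yet GAGE12C read 87.2 there with a detection p of 0.104. These folds are therefore not strict lower limits and may overstate the gap. Among the 8 members measured on both sides, the gap between KO 1 and KO 3 was thus of similar size.

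Once the background was subtracted from the linear intensities, the members kept similar proportions in the controls and, for 8 of them, in KO 3. The net intensity of KO 1 was 8.81 to 13.6 times the control mean over the 10 members, with a median of 9.59. In KO 3 it was 0.184 to 0.237 of the control mean in 8 members, while GAGE12B (0.117) and GAGE12F (0.0621) were lower and close to background. In KO 2 it was -0.143 to 0.0684 of the control mean, where a negative value lies below the background mean. Control 1 read 1.21 to 1.40, control 2 read 0.656 to 0.803 and control 3 read 0.885 to 1.09 of the mean of the 3 controls.

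**Figure D2:**
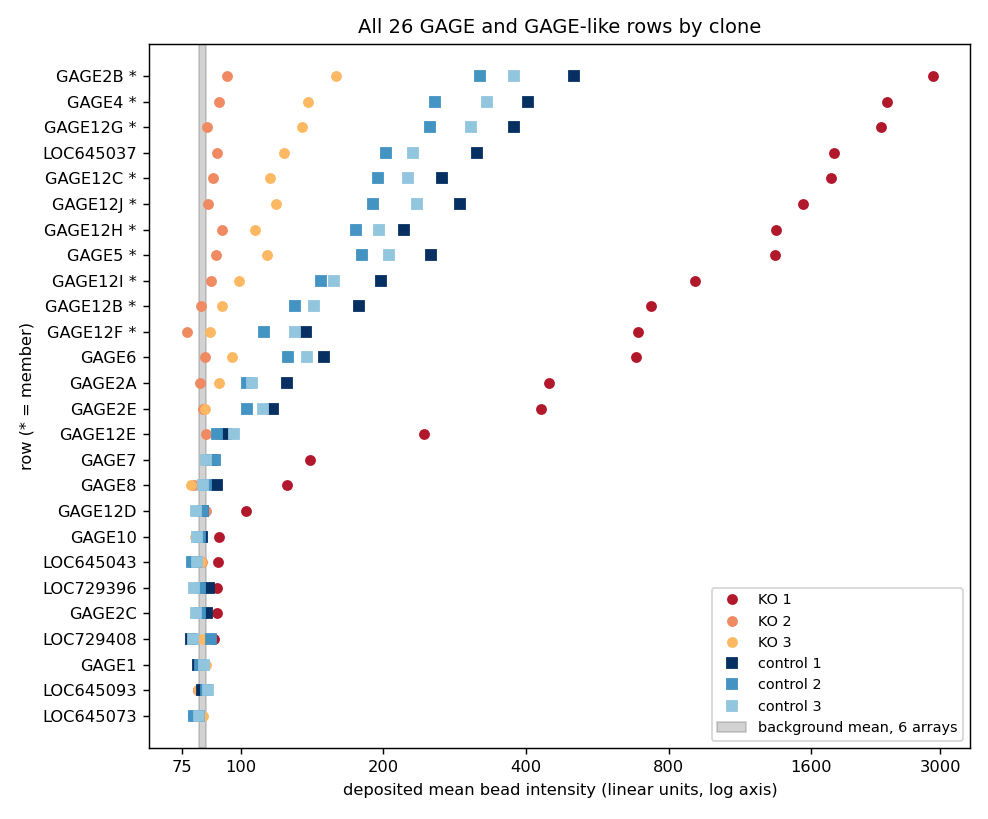
Bead intensity on a log axis for the 10 members (starred) and the other GAGE and GAGE-like rows of the table, 1 point per clone (circles for knockout, squares for control), with a grey band for the background mean. The members reach 689.7 to 2896 in KO 1 and 76.8 to 93.3 in KO 2, beside a background mean of 81.7 to 84.2.

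The group comparison of the members is given as a description. The spread between knockout clones that chose them is also the error of the moderated limma test, so a member could hardly pass it. Of the 10 members 0 passed after Benjamini-Hochberg adjustment over all 13145 tested genes, and 0 had an unadjusted p under 0.05. Of all tested genes 1.57% passed, and nothing is read from the contrast. GAGE2B averaged 7.45 ± 3.34 in knockout clones and 8.39 ± 0.48 in control clones (log2, SD, n = 3 each), a difference of -0.94 (standard error 1.32, limma adjusted p = 0.742). GAGE12F averaged 5.85 ± 2.85 in knockout clones and 5.90 ± 0.46 in control clones, a difference of -0.05 (standard error 1.13, limma adjusted p = 0.985). The other 8 differences lay between these, with limma adjusted p-values of 0.759 to 0.894. The median difference over the members was -0.52, beside -0.02 over all tested genes. The 95% interval for GAGE2B ran from -3.95 to 2.07 on the log2 scale, an interval that holds large changes in both directions.

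Single clones decided the group comparison. Without KO 1, all 10 members were lower in the remaining knockout clones, with differences of -2.80 to -1.69. Without KO 2, all 10 differences were positive, and without KO 3, 6 of 10 were. Since the knockout values chose the members, these figures describe the clones and test nothing further.

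The spread between knockout clones was among the widest of the whole table, as the choice of the members fixed. Taken from the values as measured, with KO 2 not above background in 7 members, their ranges over the 3 knockout clones ran from 5.03 for GAGE12F to 6.54 for GAGE12G on the log2 scale. With KO 2 held at the lowest detected signal, the gap between KO 1 and KO 2 was about 4.86 for GAGE12F and about 6.53 for GAGE12G. These gaps too are not strict lower limits. For comparison, 3.09% of tested genes had a range of 2-fold or more. All tested genes had a median range of 0.302 and a 99th percentile of 1.41. The members filled 10 of the first 11 places, and the row LOC645037, annotated as similar to GAGE-2, held the fifth with 6.06. Just inside the choice were GAGE12F (5.03) and GAGE12B (5.06), and just outside were GAGE6 (4.88, not tested), GAGE2A (4.29) and GAGE2E (4.20). The first row outside the family was LOC645638, a predicted RNA, at 3.44. Only 12 tested rows, or 0.0913%, had KO 1 at least 2-fold above the control mean with KO 2 and KO 3 both at least 2-fold below it: the 10 members, GAGE2E and LOC645037.

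The control clones were not used to choose the members, and they differed among themselves too. Control 1 was highest, control 3 was next and control 2 was lowest in all 10 members, an order that 22.7% of all tested genes had. Genes of other cancer-testis families differed in this. SPANXB2 had the order, with 7.38, 6.27 and 6.81 in controls 1, 2 and 3 (log2, a range of 1.11). SPANXA2, with a range of 0.88, and XAGE1C, with a range of 0.62, had it too. MAGEA8 had it as well, with 8.71, 8.48 and 8.62 in controls 1, 2 and 3, as did PAGE2B and CT45A4. MAGEB2, with 8.11, 8.46 and 8.28 in controls 1, 2 and 3, and MAGEC1, with 6.18, 6.21 and 6.23, did not. MAGEA4 and PAGE3 also lacked it, so genes differed in this within families too. The range over controls was 0.75 for GAGE12H up to 1.09 for GAGE12J on the log2 scale, with a median of 0.95. Over all tested genes the control range had a median of 0.260 and a 95th percentile of 0.720. All 10 members exceeded that percentile, as did 5.01% of tested genes. The rows may share signal between copies, so this cannot be counted as 10 observations. The count depended on the processing and on 1 clone. It was 2 with the background fitted on all rows and 4 with scaling to a common median, each against the percentile of that setting. Without control 2 it was also 2, and without control 1 it was 7.

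**Figure D3:**
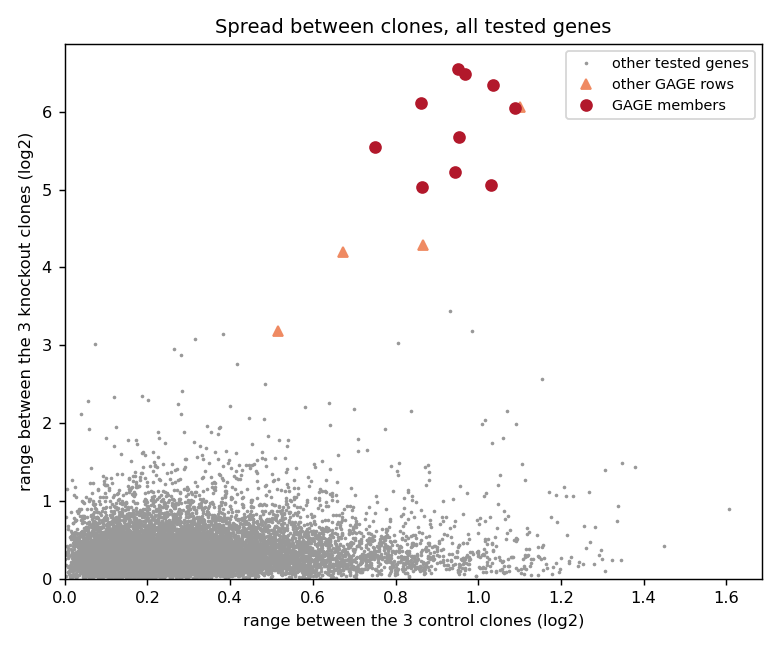
Range between knockout clones against range between control clones for every tested gene, both on the log2 scale. By values as measured, with KO 2 not above background in 7 of them, the members stand at knockout ranges of 5.03 to 6.54 and control ranges of 0.75 to 1.09, apart from the bulk, whose medians are 0.302 and 0.260.

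Other rows of the family gave a dimmer form of the same pattern, or stayed at background. Of the other 10 rows named GAGE, 7 were above background in KO 1, 0 in KO 2 and 3 in KO 3, against 4, 4 and 3 in controls 1, 2 and 3. GAGE6 read 683.9, 84.0 and 95.9 in KO 1, 2 and 3, against 150.1, 126 and 138 in the controls, but averaged probes gave it a detection p of 0.116 in KO 1 and it was not tested. GAGE2A read 448, 82.0 and 89.8 in the KO clones, against 125, 103 and 106 in the controls. GAGE2E read 430.2, 83.1 and 83.8 in the KO clones, against 117, 103 and 112 in the controls. KO 1 was the highest clone in 9 of these 10 rows. GAGE12E read 243, 84.6 and 89.4 in the KO clones, against 92.8, 89.0 and 96.8 in the controls. GAGE12D read 103, 84.6 and 81.5 in the KO clones, against 83.3, 83.0 and 80.3 in the controls. The promoter windows of GAGE12D and GAGE12E match that of GAGE12C letter for letter. GAGE12D was not above background in any control, while GAGE12E was dim but above background in each control. GAGE2A, GAGE2E and GAGE12E were tested, and their differences of 0.24, 0.15 and 0.63 had limma adjusted p-values of 0.919, 0.950 and 0.665.

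The names of single rows should be read with care. GAGE10 read 89.8, 82.1 and 80.0 in the KO clones, against 82.6, 81.9 and 80.6 in the controls, and GAGE1, with a promoter window identical to that of GAGE12C, was not above background on any of the 6 arrays. RefSeq lists GAGE4 as a synonym of GAGE1, yet the GAGE4 row was bright and the GAGE1 row was not. LOC645073 is the RefSeq gene ID number of GAGE12G and LOC729396 that of GAGE12J, and both of those rows were at background while the rows named GAGE12G and GAGE12J were bright. LOC645037 read 1789, 88.9 and 123 in the KO clones, against 315, 202 and 231 in the controls. Which copy a row measures was not tested.

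The 2 genes beside the array that could be tested did not share the pattern. RefSeq places 12 protein-coding GAGE genes together with 0 other protein-coding genes between them, and the nearest 5 protein-coding genes on each side were all in the table. Of these 10 neighbours, SYP, CACNA1F, FOXP3, PAGE4, USP27X and AKAP4 were above background on 0 arrays, and PPP1R3F on too few to be tested. CCDC22 takes part in endosomal sorting, and CLCN5 is an endosomal chloride transporter. CCDC22 read 5.20, 5.21 and 5.26 on the log2 scale in the KO clones, against 4.95, 5.02 and 5.00 in the controls. CLCN5 read 4.51, 4.61 and 4.31 in the KO clones, against 4.52, 4.56 and 4.67 in the controls. Their group differences were 0.23 and -0.11, with limma adjusted p-values of 0.252 and 0.667, but a group difference does not show the clone pattern. PAGE1, the first gene past the array and a distant relative of GAGE, read 5.39, 4.14 and 4.14 on the log2 scale in the KO clones, against 4.32, 4.25 and 4.15 in the controls. It was above background in KO 1 alone and was not tested. Over 423 tested genes of chromosome X outside the family, the median difference from the control mean was -0.01, -0.05 and -0.01 in KO 1, 2 and 3. The members were chosen for wide gaps, so their gaps are no fair comparison. A knockout range of 2-fold or more was found in 17 of the 423 genes, 4.02%, near the 3.09% of all tested genes.

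**Figure D4:**
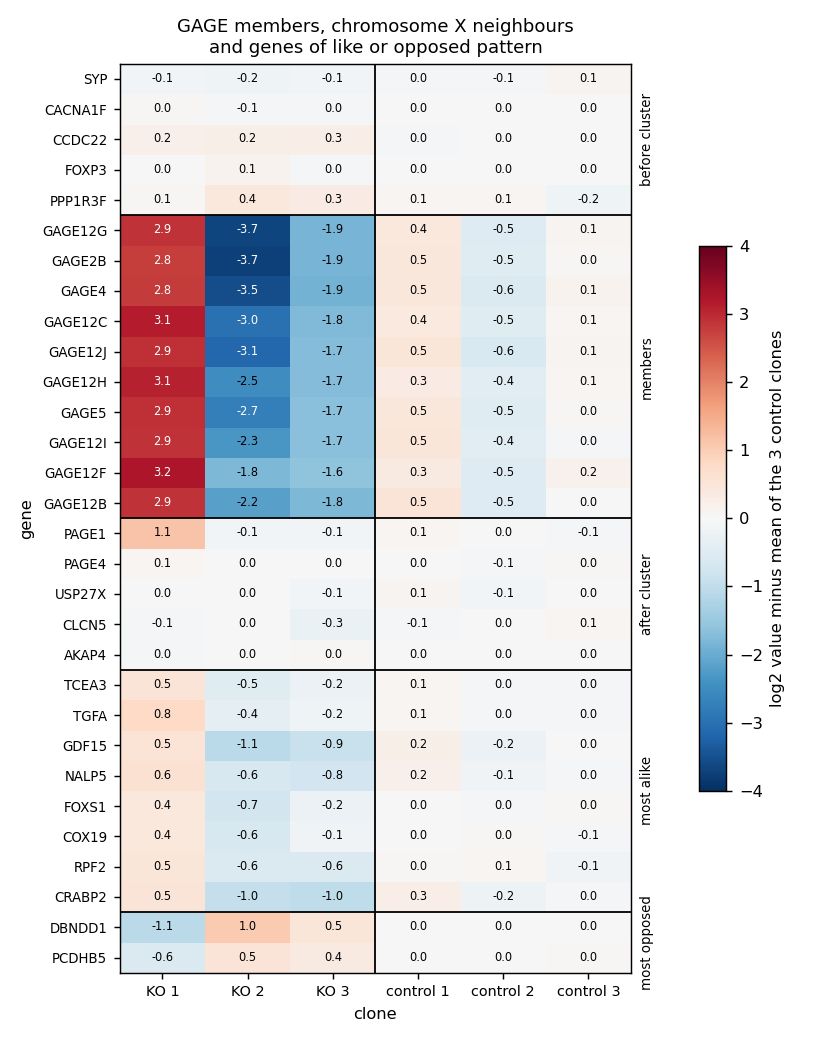
Difference of each clone from the mean of the control clones (log2 scale, colour) for the GAGE members, the neighbouring genes on both sides of the array, the 8 genes most alike and the 2 most opposed to the members. The members run from high in KO 1 to low in KO 2, and the tested neighbours stay near 0.

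In other cancer-testis families on the X chromosome, no tested gene had KO 1 at least 2-fold above the control mean with KO 2 and KO 3 both at least 2-fold below it. Only 0.0913% of all tested genes had that pattern, so its absence from such short lists says nothing about these families. The counts of these lists stand beside 1.57% of all tested genes past the limma test, 20.4% at an unadjusted p under 0.05, and a median difference of -0.02. Of the XAGE and PAGE relatives of GAGE, 8 of 16 were tested and 0 passed the limma test. Their median difference was 0.64 on the log2 scale, and 6 had an unadjusted limma p under 0.05. Several rows of this list carry XAGE1 names, so the rows may not be independent measurements. The medians of the list were alike in the clones, 0.64, 0.63 and 0.65 above the controls in KO 1, 2 and 3. XAGE1C read 9.09, 8.91 and 9.13 in the KO clones, against 8.53, 7.90 and 8.24 in the controls, with a limma adjusted p of 0.0511. Of the MAGE antigens, which serve as partners of ubiquitin ligases, 8 of 21 were tested and 0 passed, with a median of -0.15 and 0 at an unadjusted p under 0.05. MAGEA4 read 7.71, 6.84 and 7.74 in the KO clones, against 7.67, 7.69 and 7.66 in the controls. Of 12 tested genes of the SSX, CTAG, CT45, SPANX and similar families 0 passed, 1 had an unadjusted p under 0.05, and the median was 0.02. CT45A4 was highest in KO 2, with 7.36, 8.87 and 7.09 in the KO clones, against 7.50, 6.98 and 7.23 in the controls.

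Germline genes on other chromosomes gave 1 call. Of 23, 6 were tested, and GTSF1, a partner of the piRNA pathway that silences transposons, fell to 4.98, 4.32 and 4.87 on the log2 scale in KO 1, 2 and 3, against 7.26, 6.92 and 7.23 in controls 1, 2 and 3. Its difference was -2.42 (limma adjusted p = 0.00353), and all 3 knockout clones were low. GTSF1 was not above background in KO 2 (detection p 0.171), which limits the size of the gap there. The other 5 did not pass, and the median of the list was -0.20. Genes that place or read DNA methylation were tested in 13 of 18 cases and 0 passed; 3 had an unadjusted p under 0.05, near the share of all tested genes, and the median was -0.09. DNMT1, the maintenance DNA methyltransferase, read 10.38, 10.94 and 10.57 in the KO clones, against 10.86, 11.34 and 10.98 in the controls, a difference of -0.43 that did not pass. Of 24 genes of repressive chromatin in the table, 20 were tested and 0 passed, with a median of -0.07 and 4 at an unadjusted p under 0.05, again near the share of all tested genes. BMI1, a subunit of polycomb repressive complex 1, differed by -0.74 (limma adjusted p = 0.0769). These lists were drawn up with results of these data known.

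Genes whose levels ran most like the members were searched among 1395 tested genes with a range of at least 2-fold over the 6 arrays. The measure was Pearson's r over the 6 arrays with the mean of the members, as a description with no p, since 1 bright and 1 dark clone dominate it. Among the 1027 of them with ordinary gene names, TCEA3, a transcription elongation factor, had 0.992, TGFA, a ligand of the EGF receptor, 0.957, and GDF15, a secreted stress-induced cytokine, 0.956. TCEA3 read 5.23, 4.22 and 4.48 in the KO clones, against 4.78, 4.66 and 4.66 in the controls. GDF15 read 5.90, 4.27 and 4.46 in the KO clones, against 5.59, 5.12 and 5.35 in the controls. The ranges over the knockout clones were 1.01 for TCEA3 and 1.63 for GDF15, far short of the members' ranges. Neither gene was above background in KO 2, so both ranges are limited by the background. Among rows with provisional names, LOC729608 had r of 0.988 and a knockout range of 1.20. LOC645638, a predicted RNA with r of 0.987, had a wider knockout range of 3.44 and the members' full clone order. It read 9.42, 5.98 and 6.95 in the KO clones, against 8.41, 7.48 and 7.81 in the controls, a control range of 0.93. Of the ordinary names, NALP5 (0.955), FOXS1 (0.951), COX19 (0.936), RPF2 (0.934) and CRABP2 (0.933) followed. DBNDD1 was the most opposed, with r of -0.985 and 5.67, 7.79 and 7.23 in the KO clones, against 6.73, 6.74 and 6.77 in the controls. PCDHB5 (-0.984) came next, and CTSL2 (-0.960) was also among the 4 most opposed.

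Between 12982 and 13511 rows per array were above background, with median intensities of 84.7 to 87.2. Pearson's r across genes was 0.975 to 0.984 between knockout clones and 0.983 to 0.993 between control clones. Between the groups it was lowest for control 2, at 0.960 to 0.963 with the knockout clones. MBTD1, the targeted gene, was dim, with 5.17, 4.99 and 4.62 on the log2 scale in the KO clones, against 5.06, 5.05 and 5.05 in the controls, a difference of -0.13 (limma adjusted p = 0.676). The position of its probes relative to the edited bases is unknown here, so this value does not check the edit. Of 13 osteoblast markers 8 were tested, 0 passed and 1 had an unadjusted p under 0.05. Between 7 and 8 of the 13 were above background on each array, and their summed intensity was 2209 to 2590 in knockout clones and 2046 to 2195 in control clones. They did not share 1 clone order. ALPL, alkaline phosphatase, read 5.86, 7.28 and 7.02 in the KO clones, against 6.84, 6.88 and 6.82 in the controls. BMP4, a bone morphogenetic protein, read 6.53, 8.43 and 8.65 in the KO clones, against 7.62, 7.85 and 7.90 in the controls, so both were lowest in KO 1. COL1A1, a collagen chain, read 9.50, 8.86 and 9.54 in the KO clones, against 9.16, 8.74 and 8.94 in the controls. SPP1, osteopontin, read 5.00, 4.62 and 5.68 in the KO clones, against 6.07, 6.42 and 6.46 in the controls, so these 2 were lowest in KO 2 among the knockout clones. Of 8 epithelial markers 3 were tested and 0 passed, and their summed intensity was 753 to 899.8 in knockout clones and 835 to 873 in control clones. KRT8 was lower in KO 1 and KO 3, with 5.26, 7.54 and 5.46 in the KO clones, against 7.01, 7.00 and 7.06 in the controls, while KRT18 read 6.12, 5.71 and 5.93 in the KO clones, against 6.50, 6.20 and 6.23 in the controls. Of 10 blood and endothelial markers only VWF was tested, and the sum was 822 to 842 in knockout clones and 810 to 835 in control clones. Between 0 and 2 of the 10 were above background on each array. All these sums still include the background of 81.7 to 84.2 units in every row, so they are not marker signal alone. The part of these markers in the GAGE pattern was not tested.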

How the data were processed

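Total RNA of 6 U2OS clones was measured on 1 Illumina bead array each. The authors deposited the mean bead intensity of 34694 rows per array, on a linear scale and not normalized, with a detection p-value, a bead standard error and a bead number, per the file headers. A second table, deposited by the authors, holds log2 values that equal a quantile normalization of the log2 intensities to within 4.99e-09. Per the submitters' processing notes the tools were lumi and limma, with no version given. Rows are genes, some averaged over probes; 92 spike-in rows were left out, and 27 gene names turned into dates were restored.

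Values were made with limma 3.58.1 in R 4.3.3: normexp background correction from detection p-values of the 27408 rows (79.0%) that carry a single probe's p, an offset of 16, log2 and quantile normalization. Taking all rows instead put the background SD at 114 to 164 in place of 3.08 to 3.77 and called 0 genes, and the restriction to single-probe rows was adopted with that outcome known. Genes with a detection p under 0.05 on at least 3 of 6 arrays were tested (13145 genes; 21457 were not) with lmFit and eBayes, 2-sided, without covariates, at a Benjamini-Hochberg adjusted p of 0.05. The number of arrays limits the precision. The fit was tested on simulated data with the same small spread in every gene, unlike the members, so that test does not check their p-values.

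The members and gene lists were chosen with earlier results of these data known. Named genes are the 10 members, other GAGE rows, the 8 most alike and 4 most opposed genes with ordinary names, the 5 protein-coding neighbours on each side, up to 4 genes of each list with the largest knockout range, and MBTD1. Of the most opposed genes, 1 is not reported here. Promoters came from RefSeq (GRCh38.p14). Alternatives were other background, offset, normalization and filter settings, a replicate block, and leaving out each clone.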

Additional observations from a re-analysis of the deposited data

How the results depend on the processing

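The count of genes past the threshold was 207 (158 higher, 49 lower). It was 0 with the background fitted on all rows, 61 with an offset of 50, 585 (553 higher, 32 lower) with scaling to a common median, and 64 (44 higher, 20 lower) on the authors' log2 table. It was 4 without a filter and 361 (280 higher, 81 lower) with a detection p under 0.01 on all 6 arrays. Cyclic loess gave 288 (249 higher, 39 lower). With the clone number as a replicate block it was 122 (108 higher, 14 lower), and the median GAGE difference was still -0.52. Same-numbered clones deviated from their group means with correlations of 0.0656, 0.0153 and 0.0187, and the other pairs with -0.0713 to 0.0620. Whether same-numbered clones were handled together is not known. Leaving out 1 clone gave 0 (without control 3) to 577 (without control 1). The median GAGE difference of -0.52 moved by less than the SD between knockout clones, 3.10 on the log2 scale, under every setting. The members were chosen for that spread, so a shift could hardly exceed it. The sign did not hold: the median difference was 0.78 with the background fitted on all rows and 0.09 on the authors' log2 table. Leaving out 1 clone gave -2.29 (without KO 1) to 0.60 (without KO 2). The median range between knockout clones, 5.86, was 3.77 with the background fitted on all rows, 4.485 with an offset of 50, 3.86 on the authors' log2 table and 6.42 with the strict filter, which left 2 members. Leaving out 1 clone gave 1.14 (without KO 1) to 5.86. The median range between control clones, 0.95, an alternative measure added after seeing the data, was 0.31, 0.75, 0.74 and 0.63 with all rows, the larger offset, median scaling and the authors' table, and 0.36 to 0.95 when 1 clone was left out. The controls lay between KO 1 and the other knockout clones in all members left under every setting that kept all 6 arrays. The number of members above the 95th percentile of control ranges, 10, was 9 with the larger offset and 8 on the authors' table. The causes were not tested. Signals near background limit KO 2 and KO 3.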

Other observations

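CXCL14, CA9 and SCG5, outside the GAGE family, also differed widely between knockout clones and had clone orders unlike that of the members. They were picked after their values were seen and are given as log2 levels with no test. CXCL14, a chemokine, read 7.04, 8.44 and 10.23 in KO 1, 2 and 3, against 6.98, 7.23 and 7.97 in controls 1, 2 and 3, so KO 3 was highest. CA9, a carbonic anhydrase known as a target of the hypoxia response, read 7.24, 4.17 and 5.40 in the KO clones, against 4.28, 4.59 and 4.53 in the controls, so KO 1 was highest, while KO 2 and control 1 were not above background and have no order. SCG5, a chaperone of the secretory pathway, read 7.62, 4.48 and 7.20 in the KO clones, against 6.45, 6.07 and 6.40 in the controls, with KO 2 alone below the controls.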
